A study of Homo sapiens with 12 samples.

Results

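The core autophagosome machinery is the set of proteins that build, seal and deliver the vesicle of autophagy. It was taken here as 34 genes chosen by name, of 18668 genes with a row in the table of read counts. They comprise 5 genes of the ULK1 complex, 7 of the PI3K complexes and their regulators, 9 for ATG9, the WIPI proteins and lipid transfer, 10 for conjugation of the ATG8 proteins, and 3 for fusion with the lysosome. All 34 had a row and all 34 passed the filter on low counts, with 503 to 9323 reads per gene and library. RNA was measured in 22Rv1, a prostate cancer line that grows without androgen and is labelled wild type. Every group was the same line in serum-containing medium. The cells received vehicle, enzalutamide (a drug that blocks the androgen receptor), an autophagy-activating ligand, or an androgen receptor-targeting degrader, the last 2 known only by code. The exposure was 24 h and each group had 3 biologically independent libraries. The labels give no dose for any compound, so the compounds were compared at a matched time and at doses not given in the sources used here.

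Autophagy begins when the ULK1 kinase complex is freed from inhibition by mTORC1 and activates a class III PI3-kinase at the membrane of the endoplasmic reticulum. The lipid made by that kinase recruits WIPI proteins, which bring ATG2, a lipid-transfer bridge that works with the scramblases ATG9A, VMP1 and TMEM41B to feed the growing membrane. A ubiquitin-like conjugation system then attaches ATG8 proteins such as LC3 to this membrane, and tethers and SNARE proteins fuse the closed autophagosome with the lysosome. Much of this machinery is controlled after transcription, by phosphorylation, lipid binding and turnover, and RNA levels do not measure autophagic flux.

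The libraries held 55.5 to 77.2 M counted reads. The first principal component of log2 CPM placed the 3 degrader libraries apart from the other 9, at 30.3 to 34.3 against -15.7 to -4.4. CPM here is a gene's read count scaled to the size of its library, with TMM scaling. Of 10 luminal prostate markers, 10 had a row, and their summed TPM (a level per transcript length, scaled to the library) ran from 2288 to 2391 with vehicle, 1977 to 2073 with enzalutamide, 2157 to 2255 with the ligand and 1709 to 1789 with the degrader. Of the markers of other cell types, 0 of 3 basal, 0 of 3 endothelial, 5 of 6 stromal and 2 of 4 immune markers had a row, and the stromal and immune sums stayed at 7.29 to 14.9 TPM. FKBP5, an androgen receptor target, had log2 fold changes of -1.0 with the degrader, -1.25 with enzalutamide and -0.04 with the ligand (adjusted p = 1.1e-10, 7.18e-11 and 0.91). KLK3, which encodes prostate-specific antigen, had log2 fold changes of -0.92, -0.34 and -0.15 (adjusted p = 2.54e-08, 0.00859 and 0.616). KLK2, a related kallikrein, had log2 fold changes of -1.09, -0.42 and -0.32 (adjusted p = 1.7e-09, 0.000794 and 0.0331). The ligand value of KLK2 missed the threshold when any 1 of its 6 libraries was left out (adjusted p = 0.0771 to 0.161), and the enzalutamide value of KLK3 did so without enzalutamide replicate 2 (0.0644).

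Degrader-treated cells held more RNA of 13 of the 34 core genes than vehicle-treated cells, less of 1, and 20 did not pass the test. The 13 that rose were ATG13 and RB1CC1 of the ULK1 complex, ATG14, UVRAG and RUBCN of the PI3K step, WIPI1, WDR45, ATG2A, ATG2B and TMEM41B of the lipid-transfer step, ATG12 of conjugation, and EPG5 and TECPR1 of fusion. The gene that fell was PIK3R4. In RNA from whole cultures, more RNA per cell and more cells that hold the RNA cannot be told apart. The rises ran from 1.15-fold for ATG12 to 1.80-fold for WIPI1. A gene was called at an adjusted p (edgeR quasi-likelihood test, Benjamini-Hochberg over 17702 genes) under 0.05. Of all genes tested, 16.4% were called higher and 16.4% lower in this comparison, and 32.7% in either direction, against 38.2% higher and 2.94% lower among the core genes. The median log2 fold change was 0.08 over the core genes and 0.01 over all genes tested. The share of higher calls was thus above the background and the share of lower calls below it, as a description of these 34 genes with no test of the list.

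Lipid transfer had 5 of 9 genes higher and a median log2 fold change of 0.33, fusion 2 of 3 and 0.23, the PI3K step 3 of 7 (and 1 lower) and 0.09, and the ULK1 complex 2 of 5 and 0.09. Conjugation had 1 of 10 higher, 0 lower and a median of -0.04. These medians were set side by side and no test compared the steps.

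**Figure D1:**
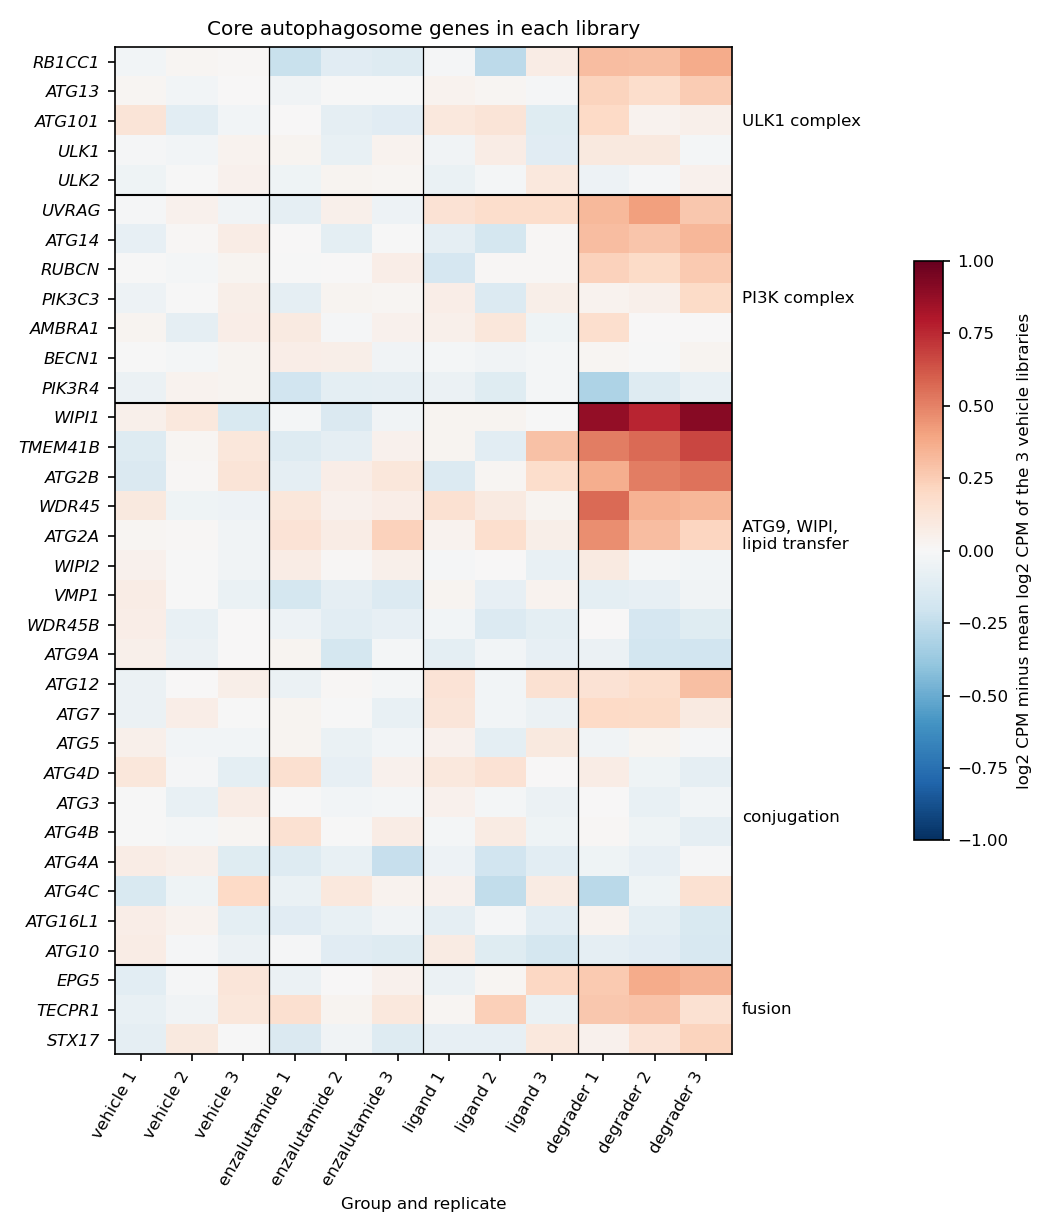
Level of each of the 34 genes (rows, grouped by step) in each of the 12 libraries (columns), as log2 CPM minus the mean of the 3 vehicle libraries; red is above that mean and blue below. The 3 degrader columns are red for WIPI1, TMEM41B, ATG2B and WDR45, while most conjugation rows stay pale in every group.

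The largest rises belonged to the lipid-transfer step. WIPI1, which binds the lipid product of the PI3-kinase, read 9.68, 10.1 and 8.40 CPM with vehicle, 9.22, 8.44 and 9.14 with enzalutamide, 9.55, 9.54 and 9.34 with the ligand and 17.2, 15.9 and 17.6 with the degrader. All 3 degrader libraries lay far above the other 9, among which the vehicle libraries overlapped both the enzalutamide and the ligand libraries (log2 fold change 0.85, SE 0.08, adjusted p = 4.14e-07). Its fold change ranked 360th of 17702 genes, counted from the highest. WIPI2, the relative of WIPI1 that recruits the conjugation machinery, averaged 93.3 ± 2.46 CPM with vehicle and 94.3 ± 4.32 with the degrader (mean ± SD, n = 3; log2 fold change 0.02, SE 0.05, adjusted p = 0.836), and it was not called.

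WDR45 and WDR45B encode the other 2 members of the WIPI family, known as WIPI4 and WIPI3. WDR45, whose protein binds ATG2, read 29.7, 26.9 and 26.8 CPM with vehicle, 30.0, 28.6 and 29.0 with enzalutamide, 30.9, 29.5 and 28.2 with the ligand and 41.1, 35.3 and 34.9 with the degrader. The degrader libraries were above all others, degrader replicate 1 standing highest (log2 fold change 0.42, SE 0.07, adjusted p = 0.000175). WDR45B was not called and averaged 120.4 ± 6.12 CPM with vehicle and 113 ± 6.97 with the degrader (log2 fold change -0.10, SE 0.05, adjusted p = 0.178). In each of these 2 pairs of the WIPI family, the gene with the lower level per length was the one that rose. The TPM ratio of WIPI1 to WIPI2 was 23.1 ± 1.86% with vehicle and 41.2 ± 2.50% with the degrader, and that of WDR45 to WDR45B was 35.8 ± 1.24% and 51.1 ± 2.01% (n = 3). The second ratio was 39.6 ± 0.321% with enzalutamide and 40.5 ± 1.55% with the ligand, both groups above the vehicle libraries and below the degrader libraries. The kinase pair ULK2 and ULK1 did not share the pattern. ULK2 had the lower level (10.4 against 34.9 TPM with vehicle) and was not called. Its TPM ratio to ULK1 was 29.8 ± 0.441% with vehicle and lower, at 26.2 ± 2.05%, with the degrader, without overlap. This ratio was 27.6 ± 1.97% with enzalutamide, overlapping both vehicle and degrader libraries, and 29.8 ± 2.18% with the ligand. In CPM, ULK2 averaged 35.6 ± 1.10 with vehicle and 35.5 ± 1.18 with the degrader. How often such ratios separate over all genes was not computed.

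Among the lipid-transfer proteins proper, both ATG2 genes rose. ATG2B read 50.7, 56.6 and 61.2 CPM with vehicle, 52.6, 58.7 and 60.7 with enzalutamide, 50.9, 56.7 and 63.2 with the ligand and 72.0, 79.8 and 81.5 with the degrader. The degrader libraries lay above all others, although the vehicle libraries differed among themselves (log2 fold change 0.47, SE 0.08, adjusted p = 0.000376). ATG2A, its paralog, read 40.3, 40.1 and 38.8 CPM with vehicle, 43.7, 41.7 and 46.5 with enzalutamide, 40.7, 44.7 and 41.4 with the ligand and 54.9, 49.2 and 46.0 with the degrader. All degrader libraries were above the vehicle and ligand libraries, and the lowest of them was below the highest enzalutamide library (log2 fold change 0.33, SE 0.06, adjusted p = 0.000864). The TPM ratio of ATG2A to ATG2B was 149 ± 16.8% with vehicle and 135 ± 21.6% with the degrader, which overlapped.

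Of the 3 scramblases, TMEM41B alone passed the test. TMEM41B, a scramblase of the endoplasmic reticulum, read 49.0, 54.4 and 58.1 CPM with vehicle, 49.1, 50.4 and 55.2 with enzalutamide, 54.7, 49.8 and 65.6 with the ligand and 76.7, 79.5 and 85.5 with the degrader. The degrader libraries were the 3 highest, and ligand replicate 3 was the highest of the rest (log2 fold change 0.58, SE 0.09, adjusted p = 9.6e-05). VMP1, which works beside TMEM41B, averaged 64.9 ± 3.13 CPM with vehicle and 61.6 ± 1.40 with the degrader (log2 fold change -0.08, SE 0.05, adjusted p = 0.291). ATG9A, the scramblase carried in vesicles to the growing membrane, read 94.5, 87.9 and 91.8 CPM with vehicle, 93.3, 81.1 and 90.4 with enzalutamide, 85.4, 89.5 and 86.2 with the ligand and 87.5, 80.5 and 80.2 with the degrader. All degrader libraries were below all vehicle libraries, degrader replicate 1 by a small margin, and they overlapped the enzalutamide and ligand libraries. The log2 fold change of -0.14 had an interval of -0.26 to -0.02 and missed the threshold (adjusted p = 0.0618), which it passed without degrader replicate 1 (adjusted p = 0.0311).

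**Figure D2:**
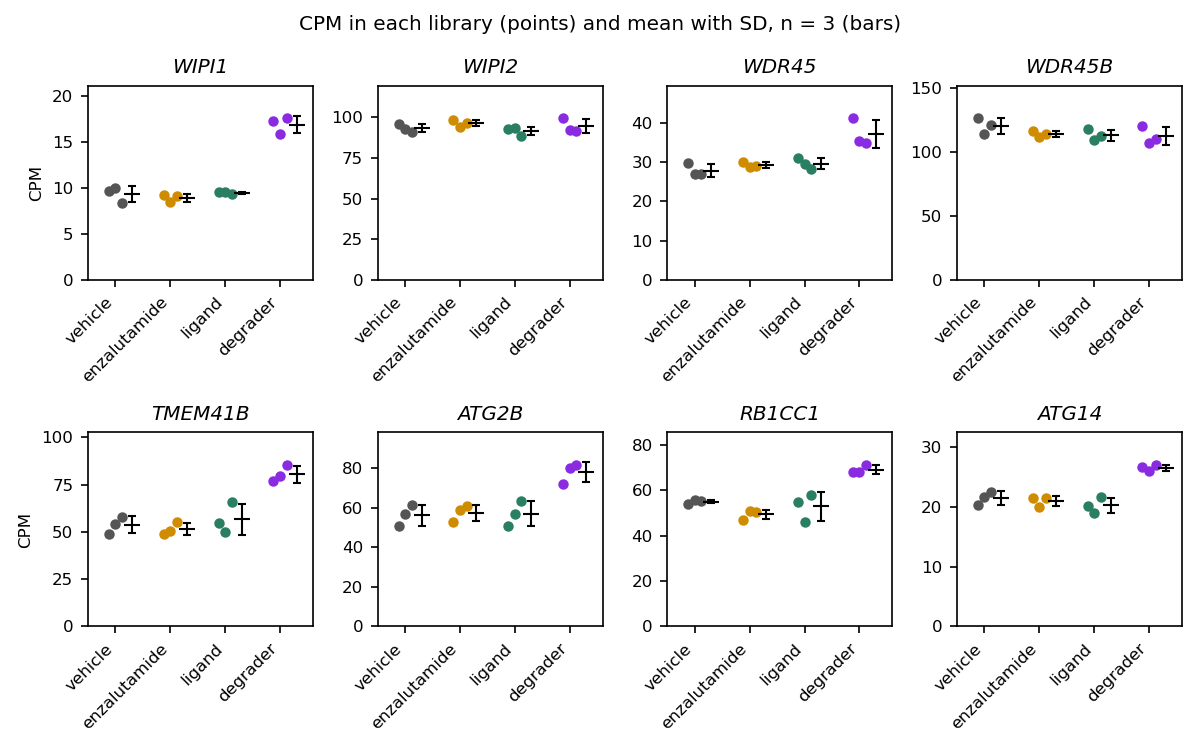
CPM (linear axis from 0) of 8 genes in each library, with the group mean and SD beside the points (n = 3). WIPI1, WDR45, TMEM41B, ATG2B, RB1CC1 and ATG14 have all 3 degrader points above the other 9 libraries, and the points of WIPI2 and WDR45B overlap between the groups.

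In the ULK1 complex, the scaffold genes rose and the kinase genes were not called. RB1CC1, which encodes FIP200, the large scaffold of the complex, read 54.1, 55.6 and 55.3 CPM with vehicle, 47.1, 50.9 and 50.2 with enzalutamide, 54.7, 45.8 and 57.9 with the ligand and 68.1, 67.8 and 71.1 with the degrader. Its degrader libraries were the 3 highest, with the enzalutamide libraries all below vehicle (log2 fold change 0.33, SE 0.07, adjusted p = 0.00137). ATG13, the subunit that joins the kinase to FIP200, read 87.6, 84.8 and 86.7 CPM with vehicle, 84.4, 86.1 and 86.3 with enzalutamide, 88.5, 87.5 and 85.5 with the ligand and 101, 97.4 and 103 with the degrader. The 9 other libraries lay within a narrow band and the degrader libraries above it (log2 fold change 0.22, SE 0.04, adjusted p = 0.00084). The kinase ULK1 averaged 90.8 ± 2.10 CPM with vehicle and 94.5 ± 4.47 with the degrader (log2 fold change 0.06, SE 0.05, adjusted p = 0.453), and its relative ULK2 35.6 ± 1.10 and 35.5 ± 1.18 (log2 fold change -0.0042, SE 0.06, adjusted p = 0.963). ATG101, the partner that stabilises ATG13, averaged 52.7 ± 4.32 and 56.3 ± 3.60 CPM (log2 fold change 0.09, SE 0.07, adjusted p = 0.358). For these 3 genes the 95% intervals of the log2 fold change were -0.06 to 0.17, -0.12 to 0.11 and -0.06 to 0.25.

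The class III PI3-kinase forms alternative complexes, 1 with ATG14 at the start of autophagosome formation and 1 with UVRAG at endosomes, where RUBCN inhibits it. All 3 of these genes rose, and of the shared core none did. ATG14 read 20.2, 21.5 and 22.5 CPM with vehicle, 21.4, 20.0 and 21.4 with enzalutamide, 20.1, 19.0 and 21.5 with the ligand and 26.6, 26.0 and 27.0 with the degrader. The degrader libraries were the 3 highest and varied little (log2 fold change 0.31, SE 0.06, adjusted p = 0.00117). UVRAG read 12.4, 12.9 and 12.3 CPM with vehicle, 11.8, 13.0 and 12.1 with enzalutamide, 13.9, 14.2 and 14.2 with the ligand and 15.7, 16.6 and 15.1 with the degrader. The degrader libraries were highest, and the ligand libraries lay together between them and the other groups (log2 fold change 0.34, SE 0.06, adjusted p = 0.000753).

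RUBCN, the inhibitor of the UVRAG complex, read 40.3, 39.9 and 41.4 CPM with vehicle, 40.3, 40.6 and 42.3 with enzalutamide, 36.0, 40.9 and 40.9 with the ligand and 47.5, 46.4 and 48.5 with the degrader. It was higher in every degrader library than in any other (log2 fold change 0.23, SE 0.05, adjusted p = 0.00432). Promoting and inhibiting members of the PI3K step thus rose alongside each other. PIK3R4, the regulatory subunit also called VPS15, read 54.3, 57.8 and 57.5 CPM with vehicle, 49.6, 52.9 and 53.2 with enzalutamide, 54.3, 51.9 and 55.6 with the ligand and 45.6, 51.8 and 53.6 with the degrader. All degrader libraries were below the vehicle libraries, but degrader replicates 2 and 3 were within the range of the enzalutamide and ligand libraries (log2 fold change -0.17, SE 0.06, adjusted p = 0.0422). Leaving out degrader replicate 1, the lowest, gave a log2 fold change of -0.10 and adjusted p = 0.213. The call was also lost without degrader replicate 2, vehicle replicate 2 or vehicle replicate 3 (adjusted p = 0.065, 0.141 and 0.107). The catalytic subunit PIK3C3 averaged 34.8 ± 1.34 and 37.1 ± 2.22 CPM with vehicle and the degrader (log2 fold change 0.09, SE 0.07, adjusted p = 0.3). BECN1, the Beclin 1 scaffold, averaged 67.2 ± 1.07 and 67.9 ± 0.855 (log2 fold change 0.02, SE 0.04, adjusted p = 0.823). AMBRA1, which links this complex to ubiquitin ligases, averaged 53.6 ± 3.02 and 55.8 ± 3.62 (log2 fold change 0.06, SE 0.06, adjusted p = 0.497).

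The conjugation genes had the median closest to 0 of the 5 steps. ATG12, the ubiquitin-like protein joined to ATG5, read 65.4, 68.0 and 70.6 CPM with vehicle, 65.3, 68.5 and 66.9 with enzalutamide, 74.6, 66.7 and 75.7 with the ligand and 75.2, 76.9 and 83.5 with the degrader. Its degrader libraries were above vehicle and enzalutamide but overlapped the ligand libraries (log2 fold change 0.21, SE 0.06, adjusted p = 0.0103). Without degrader replicate 3 the adjusted p of ATG12 was 0.0625. ATG7, the E1-like enzyme that activates both ATG12 and the ATG8 proteins, read 28.1, 30.6 and 29.3 CPM with vehicle, 29.9, 29.2 and 27.9 with enzalutamide, 31.8, 28.8 and 28.2 with the ligand and 33.6, 33.5 and 31.2 with the degrader. Every degrader library was above the vehicle libraries. The log2 fold change of 0.16 had an interval of 0.03 to 0.29 and adjusted p = 0.0524, which just missed the threshold. Without vehicle replicate 2 or degrader replicate 3 it passed (adjusted p = 0.0487 and 0.041). ATG10, the E2-like enzyme for ATG12, read 27.1, 25.6 and 24.7 CPM with vehicle, 25.6, 23.8 and 23.6 with enzalutamide, 27.3, 23.7 and 22.9 with the ligand and 24.2, 23.9 and 23.0 with the degrader, and its degrader libraries were all below the vehicle libraries while the enzalutamide and ligand libraries spanned both (log2 fold change -0.12, SE 0.07, adjusted p = 0.183).

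The remaining conjugation genes had log2 fold changes between -0.07 and -0.01 with the degrader. They are ATG3, the E2-like enzyme for ATG8 (-0.04), the proteases ATG4A (-0.05), ATG4B (-0.04), ATG4C (-0.05) and ATG4D (-0.02), which process ATG8 proteins, and ATG5 (-0.01) and ATG16L1 (-0.07), which form the E3-like complex with ATG12. Over the 9 conjugation genes that were not called, the 95% intervals reached at most -0.29 and 0.29. These intervals bound the size of a change in each of those genes.

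Of the genes for fusion, EPG5 and TECPR1 rose. EPG5, a tether between autophagosome and late endosome, read 49.1, 52.4 and 57.5 CPM with vehicle, 50.9, 53.1 and 54.4 with enzalutamide, 50.7, 53.7 and 61.1 with the ligand and 63.4, 68.4 and 66.8 with the degrader. The degrader libraries were the 3 highest, with ligand replicate 3 next (log2 fold change 0.32, SE 0.07, adjusted p = 0.00187). TECPR1, a tether that binds the ATG12 to ATG5 conjugate, read 32.1, 32.9 and 36.5 CPM with vehicle, 37.7, 34.4 and 36.3 with enzalutamide, 34.2, 39.8 and 32.2 with the ligand and 40.7, 41.1 and 37.5 with the degrader. The degrader libraries were above vehicle and overlapped the ligand and enzalutamide libraries (log2 fold change 0.23, SE 0.07, adjusted p = 0.0229). Leaving out vehicle replicate 1 or 2, or degrader replicate 1 or 2, gave TECPR1 an adjusted p of 0.0887, 0.0816, 0.0648 and 0.0865. STX17, the SNARE of the closed autophagosome, read 41.9, 47.5 and 44.4 CPM with vehicle, 40.4, 43.5 and 40.7 with enzalutamide, 42.0, 42.1 and 47.9 with the ligand and 45.9, 49.1 and 52.0 with the degrader, so that vehicle and degrader libraries overlapped (log2 fold change 0.14, SE 0.07, adjusted p = 0.134).

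**Figure D3:**
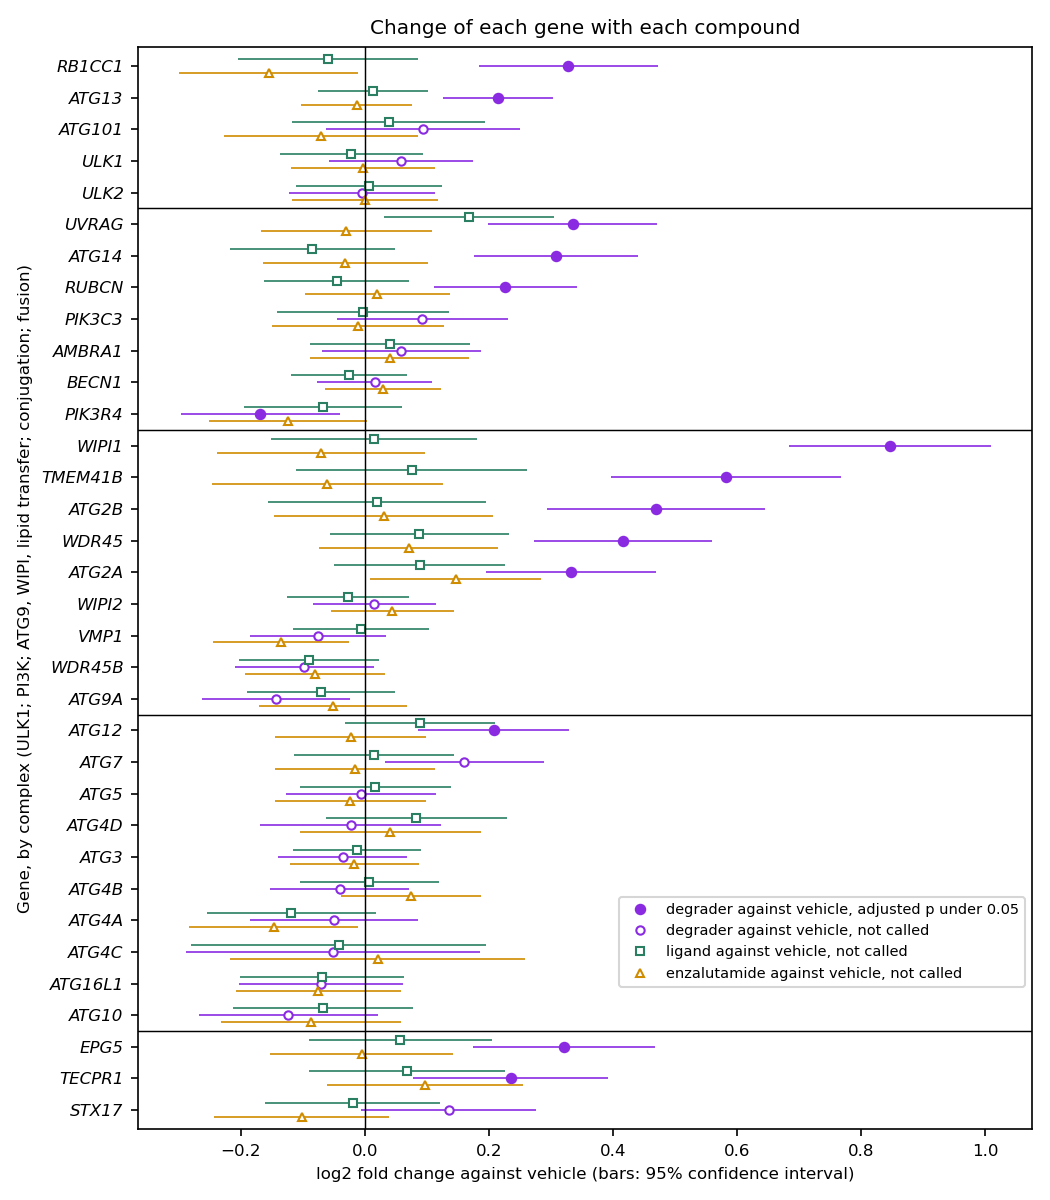
Log2 fold change of each gene against vehicle (horizontal axis) with its 95% confidence interval, for the degrader, the ligand and enzalutamide; filled points passed the adjusted p threshold. There are 14 filled points, all for the degrader, from -0.17 for PIK3R4 to 0.85 for WIPI1.

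No core gene passed the test with the ligand or with enzalutamide. With the ligand, 0 of 34 were called against 0.237% of all genes tested (0.203% higher and 0.0339% lower), and 1 had an unadjusted p under 0.05. That gene was UVRAG, with all 3 ligand libraries above the 3 vehicle libraries (log2 fold change 0.17, interval 0.03 to 0.30, adjusted p = 0.576). With enzalutamide, 0 of 34 were called against 1.44% of all genes (0.35% higher and 1.09% lower), and 4 had an unadjusted p under 0.05. They were ATG2A (0.15), VMP1 (-0.14), ATG4A (-0.15) and RB1CC1 (-0.16), with adjusted p = 0.464, 0.346, 0.457 and 0.459. By DESeq2 and by limma-voom the count of called core genes was also 0 for both compounds. The log2 fold changes ran from -0.12 to 0.17 with the ligand and from -0.16 to 0.15 with enzalutamide, and over all 34 genes the 95% intervals reached no further than -0.28 and 0.30 with the ligand and -0.30 and 0.28 with enzalutamide.

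The direct tests between compounds asked whether the degrader differed from the ligand, which is labelled as activating autophagy, and from enzalutamide, which acts on the same receptor. Against the ligand, 10 of 34 core genes were higher and 0 lower with the degrader, or 29.4%, where 28.5% of all genes were called in either direction, 14.3% higher and 14.2% lower. The 10 were WIPI1, TMEM41B, ATG2B, ATG14, RB1CC1, WDR45, RUBCN, EPG5, ATG2A and ATG13. WIPI1 differed by 0.83 (SE 0.08, adjusted p = 7.73e-07), TMEM41B by 0.51 (SE 0.09, adjusted p = 0.000436) and ATG14 by 0.39 (SE 0.06, adjusted p = 0.000204) on the log2 scale. UVRAG did not pass, with a difference of 0.17, an interval of 0.03 to 0.30 and adjusted p = 0.0609. ATG2A lost its call without degrader replicate 1 (adjusted p = 0.0586), and EPG5 without ligand replicate 1 or degrader replicate 2 (0.0585 and 0.0511).

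Against enzalutamide, 14 of 34 were higher and 0 lower with the degrader, or 41.2%, where 32.3% of all genes were called, 16.3% higher and 16.1% lower. WIPI1 differed by 0.92 (SE 0.08, adjusted p = 1.87e-07), TMEM41B by 0.64 (SE 0.09, adjusted p = 3.98e-05) and RB1CC1 by 0.48 (SE 0.07, adjusted p = 4.78e-05). ATG7 and STX17, not called against vehicle, were called here at 0.18 and 0.24 (adjusted p = 0.0349 and 0.0118). These calls, and that of ATG2A at 0.19 (adjusted p = 0.0367), were the ones lost when 1 library was left out. ATG7 lost its call without enzalutamide replicate 2 or 3 or degrader replicate 1 or 2 (adjusted p = 0.0696, 0.124, 0.0993 and 0.11), ATG2A without enzalutamide replicate 1 or 2 or degrader replicate 1 or 2 (0.0885, 0.143, 0.197 and 0.0645), and STX17 without degrader replicate 3 (0.065). TECPR1, called against vehicle, differed by 0.14 from enzalutamide and 0.17 from the ligand (adjusted p = 0.175 and 0.107, the second 0.0134 without ligand replicate 2). The 10 genes higher than with the ligand were also higher than with vehicle and with enzalutamide. These comparisons share the 3 degrader libraries and are not independent of each other. For 10 core genes, the same set with UVRAG in place of ATG2A, the lowest degrader library was above the highest of the 9 others. Of all genes tested, 14.1% stood above in this way and 13.4% below, where 0 core genes stood.

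Levels per transcript length showed which members were abundant in the first place. In vehicle-treated cells the median over the 34 genes was 22.0 TPM, against 9.25 TPM over all genes with a row. WDR45B was highest at 98.6 TPM, followed by ATG3 at 80.8, ATG101 at 76.0, ATG4D at 67.9 and BECN1 at 65.4 TPM. UVRAG was lowest at 5.01 TPM, below PIK3C3 at 7.57, EPG5 at 8.56 and ATG2B at 8.74 TPM. None of the 5 most abundant genes was called with the degrader, while UVRAG, EPG5, ATG2B, RUBCN (8.94 TPM), ATG14 (9.29) and WIPI1 (10.0) were among the 7 least abundant and rose. TECPR1 (10.6), ATG2A (12.9) and RB1CC1 (16.9) also rose from below the median. WDR45 (35.2), ATG12 (34.3), TMEM41B (30.2) and ATG13 (29.8) rose from above it. The share called among all genes of like TPM was not computed, and level was not separated from transcript length.

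**Figure D4:**
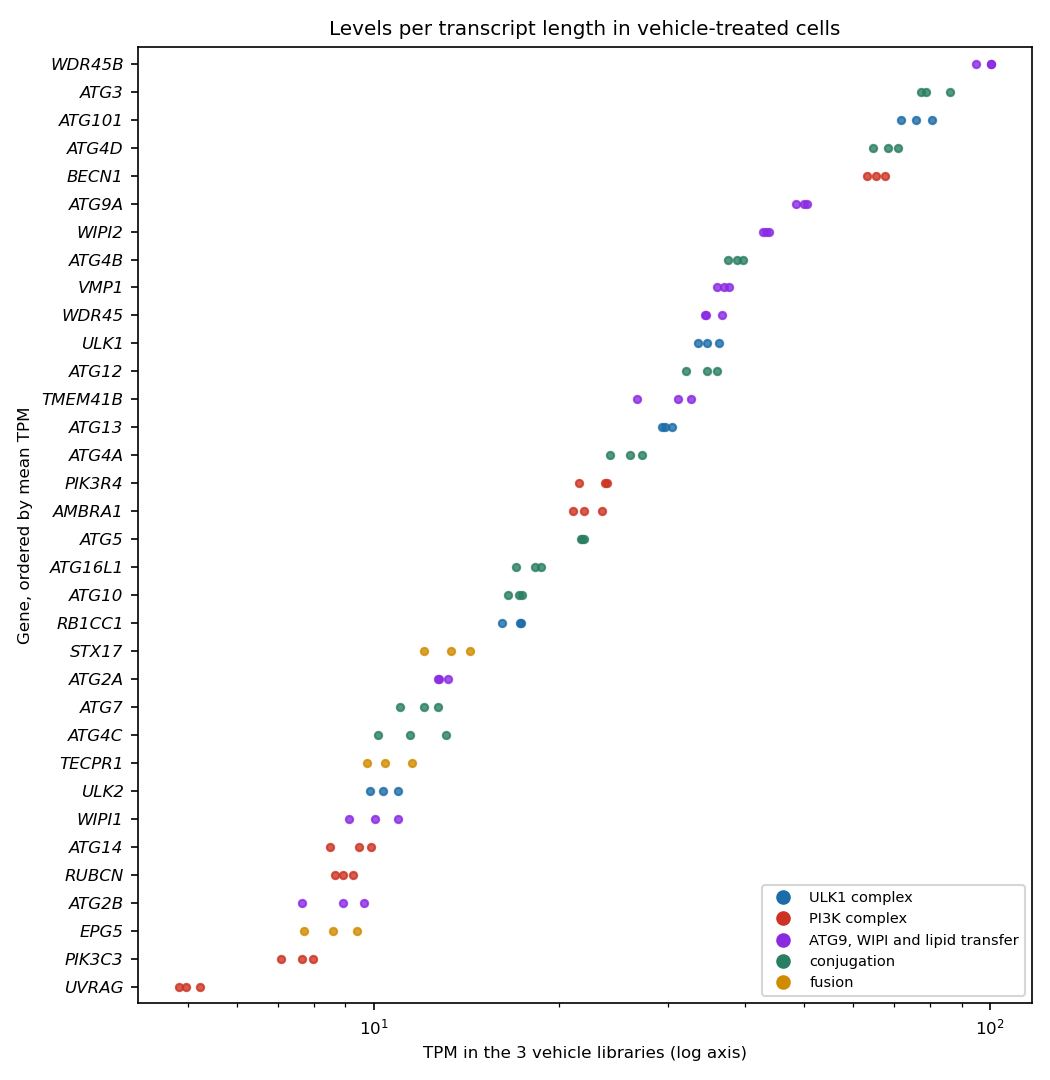
TPM of each of the 34 genes in the 3 vehicle libraries (log axis), ordered by the mean and coloured by step. The genes span from 5.01 TPM for UVRAG to 98.6 TPM for WDR45B, and the points of a gene lie close together compared with the span between genes.

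Summed over its members, the lipid-transfer step held 326 ± 2.70 TPM with vehicle and 361 ± 5.71 TPM with the degrader (n = 3), without overlap. The ULK1 complex held 168 ± 3.75 and 186 ± 2.04 TPM, also without overlap. Fusion genes held 32.4 ± 2.52 and 38.4 ± 1.81 TPM, and the conjugation genes 328 ± 4.53 and 335 ± 1.59 TPM, neither with overlap between vehicle and degrader libraries. The PI3K genes held 141 ± 5.53 and 149 ± 3.51 TPM, with overlapping libraries. By counts, 8 of the 10 conjugation genes had a negative log2 fold change with the degrader. ATG3 averaged 80.8 TPM with vehicle and 82.2 with the degrader, but 69.9 and 68.2 CPM. Over all genes, the median log2 fold change of this comparison was 0.0227 on log2(TPM + 1) and 0.00575 by counts. These sums are a description of levels over the chosen genes and carry no test, and no background for such separation was computed.

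Genes known to regulate transcription of the pathway were described as well. Of 10 listed regulators, 7 were higher and 1 lower with the degrader than with vehicle, or 70% and 10%. Of all genes tested, 16.4% were higher and 16.4% lower. DDIT3, the stress-induced factor CHOP, averaged 36.9 ± 1.14 CPM in vehicle and 115 ± 10.8 CPM in degrader libraries (log2 fold change 1.64, SE 0.07, adjusted p = 2.52e-11). FLCN, which restrains TFEB and TFE3, averaged 26.1 ± 1.13 CPM in vehicle and 47.2 ± 0.766 CPM in degrader libraries (log2 fold change 0.85, SE 0.06, adjusted p = 6.79e-09), and it was also the 1 called gene of all 64 other pathway genes with the ligand, at 33.1 ± 1.72 CPM (log2 fold change 0.34, SE 0.06, adjusted p = 0.00986). The call of FLCN with the ligand was lost without vehicle replicate 3 or ligand replicate 2 (adjusted p = 0.092 and 0.0616). ATF4, the factor of the integrated stress response, averaged 359.8 ± 14.9 CPM in vehicle and 624 ± 34.6 CPM in degrader libraries (log2 fold change 0.79, SE 0.05, adjusted p = 9.78e-09). Of the family of factors that bind autophagy and lysosome promoters, chosen for mention after their values were seen, MITF, TFE3 and TFEB had log2 fold changes of 0.51, 0.08 and -0.23 (adjusted p = 7.26e-05, 0.412 and 0.0339). TFEB missed the threshold without vehicle replicate 1 or 3 or degrader replicate 2 or 3 (adjusted p = 0.101, 0.114, 0.121 and 0.0725).

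The promoters of the core genes were searched on both strands for the letters of 4 elements that such factors are known to bind. RefSeq windows of 300 bases, from 250 before to 50 after the gene start on GRCh38.p14, were matched by symbol for 28 of the 34 genes, 10 of which were higher with the degrader. Some genes had more than 1 window, and the 28 genes had 33 in all. TCACGTG, the E-box type bound by TFEB and its relatives, was found in 2 of the 33 windows, those of ATG14 and ATG3. It occurred in 3.71% of all 35116 windows and in 5.17% of the 17856 windows of tested genes. CACGTG, which lies within that element, was found in the same 2 windows. It occurred in 7.26% of all windows and in 9.16% of those of tested genes. TGATGNAA, the composite element bound by ATF4 and CHOP, and GTAAACA, the forkhead element, were each found in 1 of the 33 windows. It was a window of WDR45, where they overlap. These 2 elements occurred in 3.62% and 3.42% of all windows and in 2.09% and 2.63% of those of tested genes. The windows with a match are shown with WIPI1, the gene with the largest rise, in whose window none of the 4 elements was found. Capitals mark the matched elements and all are written 5′ to 3′ on the strand of the gene.
ATG14: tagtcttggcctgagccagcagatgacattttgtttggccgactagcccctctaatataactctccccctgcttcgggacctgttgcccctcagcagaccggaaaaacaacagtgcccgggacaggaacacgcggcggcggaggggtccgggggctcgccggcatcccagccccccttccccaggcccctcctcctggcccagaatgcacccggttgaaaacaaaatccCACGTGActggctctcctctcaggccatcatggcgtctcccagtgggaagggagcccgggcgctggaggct
ATG3: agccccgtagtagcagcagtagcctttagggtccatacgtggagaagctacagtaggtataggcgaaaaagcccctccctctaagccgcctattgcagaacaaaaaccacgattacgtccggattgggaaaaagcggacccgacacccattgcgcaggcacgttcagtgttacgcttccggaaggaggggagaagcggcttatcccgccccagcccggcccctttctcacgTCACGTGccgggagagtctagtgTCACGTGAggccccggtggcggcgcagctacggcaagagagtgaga
WDR45: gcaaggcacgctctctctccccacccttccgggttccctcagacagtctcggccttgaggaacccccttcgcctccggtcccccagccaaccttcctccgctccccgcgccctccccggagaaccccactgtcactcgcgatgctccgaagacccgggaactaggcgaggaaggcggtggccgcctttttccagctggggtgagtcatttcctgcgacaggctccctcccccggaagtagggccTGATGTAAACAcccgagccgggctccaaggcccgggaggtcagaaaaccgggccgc
WIPI1: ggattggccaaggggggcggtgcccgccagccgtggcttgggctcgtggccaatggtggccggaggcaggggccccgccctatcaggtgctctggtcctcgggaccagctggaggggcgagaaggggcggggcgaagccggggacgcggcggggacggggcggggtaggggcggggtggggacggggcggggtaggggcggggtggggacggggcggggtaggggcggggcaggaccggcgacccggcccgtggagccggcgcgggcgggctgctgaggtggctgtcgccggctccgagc
The window of ATG14 is chr14:55411781-55412080 on the minus strand, and its match starts at -21 from the gene start. ATG3 is at chr3:112561913-112562212, minus strand, with matches starting at -19 and 5. The WDR45 window, the second of that gene, is chrX:49079838-49080137, minus strand, with matches starting at -6 and -2. WIPI1 is at chr17:68457447-68457746, minus strand. Of the genes shown, ATG14, WDR45 and WIPI1 rose with the degrader and ATG3 did not pass the test, so a match was present in 2 genes that rose and in 1 that was not called. A match is a description of the letters and does not show binding.

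Partners of the core machinery were taken as 65 further genes, of which 64 were tested. They include the regulators above and were chosen with earlier results of these data known, so their shares are a description only. With the degrader 27 were higher and 2 lower than with vehicle, or 42.2% and 3.12%, against 16.4% and 16.4% of all genes tested. Their median log2 fold change was 0.14, against 0.01 over all genes tested. The lists within these 64 genes are described by counts alone, to be read against the same shares. The cargo receptors had 7 of 14 higher and 0 lower. Of the 14, 5 had a negative log2 fold change, the lowest being -0.81. BNIP3, which was not called, averaged 110 ± 33.5 CPM in vehicle and 62.8 ± 19.0 CPM in degrader libraries, with overlap. CCPG1, a receptor for autophagy of the endoplasmic reticulum, averaged 21.4 ± 1.41 CPM in vehicle and 50.2 ± 2.46 CPM in degrader libraries (log2 fold change 1.23, SE 0.07, adjusted p = 1.35e-09). SQSTM1, the receptor p62, averaged 167 ± 12.2 CPM in vehicle and 343 ± 39.3 CPM in degrader libraries (log2 fold change 1.04, SE 0.08, adjusted p = 6.13e-08), and with the ligand it stood at 198 ± 14.6 CPM (adjusted p = 0.392). CALCOCO1, another receptor, changed by 0.45 (SE 0.07, adjusted p = 8.89e-05).

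The ATG8 proteins are the substrates of the conjugation genes. Of the 6 tested, 2 were higher with the degrader and 0 lower. MAP1LC3B, which encodes LC3B, averaged 77.4 ± 1.82 CPM in vehicle and 131 ± 2.88 CPM in degrader libraries (log2 fold change 0.76, SE 0.04, adjusted p = 2.41e-09), and GABARAPL1 averaged 12.6 ± 1.18 CPM in vehicle and 22.6 ± 2.09 CPM in degrader libraries (log2 fold change 0.84, SE 0.09, adjusted p = 1.58e-06). The other 4 ATG8 genes tested were not called. Of the 10 genes in the conjugation list, 9 were not called, ATG7 by a narrow margin (adjusted p = 0.0524).

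Partners of the PI3K step had 4 of 7 higher and 0 lower. MTMR3, a phosphatase of the PI3K product, changed by 0.25, ZFYVE1, which encodes the omegasome protein DFCP1, by 0.34, and SH3GLB1, a UVRAG partner, by 0.16 (adjusted p = 0.00113, 0.00182 and 0.0196). Fusion partners had 5 of 12 higher and 0 lower. The tether subunits VPS11 and VPS41 changed by 0.39 and 0.33, and the SNARE STX7 by 0.37 (adjusted p = 7.85e-05, 0.000118 and 0.00102). Upstream of ULK1, the mTORC1 and AMPK genes had 2 of 15 higher and 1 lower, or 13.3% and 6.67%, both below the shares over all genes. TSC1, an inhibitor of mTORC1 signalling, changed by 0.53, PRKAB1, an AMPK subunit, by 0.23 and the kinase MTOR by -0.17 (adjusted p = 6.93e-06, 0.0155 and 0.0102). SH3GLB1 lost its call without vehicle replicate 1 or 2 or degrader replicate 2 or 3 (adjusted p = 0.0701, 0.0583, 0.0737 and 0.077), PRKAB1 without vehicle replicate 3 (0.0827) and MTOR without degrader replicate 2 (0.0549). With enzalutamide 0 of the 64 genes were called by edgeR, and 2 had an unadjusted p under 0.05.

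Transcript length moved with the degrader comparison over all genes. By the longest coding transcript in GENCODE 29, known for 14162 of 17702 tested genes and all 34 core genes, the median length was 4074 bases for the core genes and 3400 for all genes. It was 4742 bases for the core genes that rose and 3124.5 for those not called. Over all genes, the share higher with the degrader was 9.92% in the shortest of 4 equal length classes, then 16.4%, 20.6% and 23.2% in the longest. Core genes higher were 2 of 5, 0 of 9, 5 of 10 and 6 of 10 in the same classes. WIPI1 and WDR45 were the 2 in the shortest, and the part of length in the rises was not tested.

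Some core genes share exon bases with a neighbour, and whether the counting used the strand is not given in the sources used here. WIPI1 shares 28.5% of its exon bases with ARSG on the opposite strand, which had a log2 fold change of -0.28 with the degrader (adjusted p = 0.00956, and 0.0509 without degrader replicate 1). WDR45 shares 25.1% with PRAF2 on the same strand, which had one of 0.20 (adjusted p = 0.02, and 0.0562 to 0.0747 without vehicle replicate 2 or 3 or degrader replicate 1), so the division of reads between those genes is uncertain. ATG7 shares 32.2% with VGLL4, BECN1 23.5% with CNTD1 and ATG4D 17.5% with KRI1, each on the opposite strand. With the degrader VGLL4 had a log2 fold change of 0.35, CNTD1 of 0.47 and KRI1 of -0.21 (adjusted p = 0.000112, 0.0231 and 0.00552). CNTD1 missed the threshold without vehicle replicate 1 or 2 or degrader replicate 2 or 3 (adjusted p = 0.0568 to 0.0813). The part of VGLL4 reads in the values of ATG7 was not tested. In the authors' deposited table, 16 core genes had an adjusted p under 0.05 for the degrader, 14 up and 2 down, which include all 14 called here with the same direction, and 0 for the ligand or enzalutamide.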

How the data were processed

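RNA of 22Rv1 cells was sequenced in 12 libraries, 3 for each of 4 groups, from a stranded mRNA kit per the labels' protocols. The submitters' processing notes name HISAT2, StringTie and the build GRCh37; versions and the strand setting of the counting are not given in the sources used here. The authors deposited whole read counts and TPM values per gene and library, per the file headers. The deposited table also holds, per compound against vehicle, a score (a signed linear fold) and a Benjamini-Hochberg adjusted p-value. Every gene in it has at least 1 read in each library, so a gene at 0 in any library has no row.

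The members, lists, named genes and alternatives were chosen with earlier results of these data known. Every member was described, with all libraries for the 14 called and for the 4 with the largest fold change not called. Of each other list up to 3 called genes with the smallest p were named. BNIP3 was added after its values were seen.

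Of 18668 genes, 17702 passed filterByExpr of edgeR (minimum count 10, minimum total 15) and 966 did not. Counts were TMM scaled (factors 0.987 to 1.016) and fitted with edgeR's quasi-likelihood model (robust) on all 12 libraries with group as the term, leaving 8 residual degrees of freedom, with 5 contrasts adjusted over all genes. Library totals were 55.5 to 77.2 M reads. Over all genes, replicates of a group differed by more than counting error (chi-square per degree of freedom 5.56 to 22.8). Genes with many reads weigh most in that value. It was not computed for single core genes, so counting error may be a large part of the spread in those with few reads. The model was tested on simulated data. Alternatives were DESeq2, limma-voom, median-ratio scaling, no filter, only the groups compared, a replicate block, each library left out, and, chosen after seeing the data, limma on log2(TPM + 1). R 4.3.3, edgeR 4.0.16, limma 3.58.1 and DESeq2 1.42.0 were used. Promoters are RefSeq's on GRCh38.p14 and lengths and exons GENCODE 29's; no coordinates were converted.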

Additional observations from a re-analysis of the deposited data

How the results depend on the processing

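Of the 14 core genes called with the degrader against vehicle, 11 kept their call under every alternative and 3, PIK3R4, ATG12 and TECPR1, lost it under at least 1. No called gene value changed sign, while the sign turned between settings for ULK2, WIPI2, ATG3, ATG4C, ATG4D and ATG5 among the core genes not called with the degrader against vehicle. The count of core genes lower, 1 by edgeR, was 2 by DESeq2 and 0 by limma on log2(TPM + 1), a choice made after seeing the data. ATG7 passed the threshold with DESeq2, limma-voom, the groups compared only and log2(TPM + 1) (adjusted p = 0.0495, 0.0477, 0.048 and 0.034), and ATG9A with DESeq2 and the groups compared only (adjusted p = 0.042 and 0.0448). Over all genes, the ligand changed 42 by edgeR, 121 by DESeq2 and 25 with the groups compared only, and enzalutamide 255 by edgeR and 392 by DESeq2. FLCN and KLK2 lost their calls with the ligand in the 2 groups alone (adjusted p = 0.0929 and 0.0678), and MTOR its call with the degrader on log2(TPM + 1) (0.0771). ATG101 passed against enzalutamide with the groups compared only and with log2(TPM + 1) (0.0435 and 0.0276). The causes of these shifts were not tested.

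Leaving out 1 library at a time gave 12 to 13 core genes higher and 0 to 1 lower against vehicle with the degrader, 9 to 11 higher against the ligand and 12 to 13 against enzalutamide. The counts over all genes were then 4580 to 5217, 3781 to 5408 and 4531 to 5210 for those comparisons, 21 to 77 for ligand against vehicle and 173 to 218 for enzalutamide against vehicle. Core genes called with the ligand or enzalutamide stayed at 0. For ligand against vehicle, the count of 42 became 77 without ligand replicate 3, and 24, 21, 22 and 25 without vehicle replicate 2, vehicle replicate 3, ligand replicate 1 and ligand replicate 2.

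The labels number the replicates, and the main model did not use that number as a block. Whether the number marks a pairing was not tested. Same-numbered libraries of different groups had correlations of -0.0323 to 0.207, 7 of 18 pairs were over 0.1, and 9 of 12 libraries had their highest mean correlation with their own number. With the number as a block, 15 core genes were higher and 3 lower with the degrader against vehicle, 13 higher against the ligand and 15 against enzalutamide, and 0 changed with the ligand or enzalutamide. The genes added against vehicle were ATG7 and STX17, higher (adjusted p = 0.0215 and 0.0481), and ATG9A and WDR45B, lower (0.018 and 0.0412). The block called 7265, 6559 and 7221 of all genes in the degrader comparisons, 191 for the ligand and 553 for enzalutamide against vehicle.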
